A study of Mus musculus with 6 samples.

Results

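This section describes 9 genes of peroxisomal fatty acid oxidation in mouse liver, out of 54532 genes in the deposited table. They were chosen by name, with earlier results of these data known. The set holds the oxidase gene Acox2, the bifunctional enzyme genes Ehhadh and Hsd17b4, and the thiolase genes Acaa1b, Acaa1a and Scp2. It also holds the carnitine acyltransferase genes Crot and Crat and the peroxisome division gene Pex11a. Liver RNA was sequenced from mice with a hepatocyte-specific G3bp1 knockout (HKO, 3 libraries) and from G3bp1-floxed litter controls (Flox, 3 libraries). All mice of both groups received a high-fat diet (HFD) for 12 weeks, starting at 6 weeks of age. The study asked how G3BP1, a stress granule protein that binds RNA, affects steatohepatitis. The sources used here do not name the Cre line, the strain or the sex. Hepatocytes alone lose the gene in this model, and the other cells of the liver keep it. Whether the libraries stem from separate animals is not stated in the labels, and the spread behind each p-value may therefore be technical. They give no batch.

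Peroxisomes shorten very long and branched fatty acids, dicarboxylic acids and the side chain of bile acid precursors. An acyl-CoA oxidase starts each round and gives off hydrogen peroxide, a bifunctional enzyme hydrates and dehydrogenates the product, and a thiolase cuts off the end. The chain is not shortened completely: carnitine acyltransferases hand the shortened acyl groups on, and mitochondria finish them. In rodent liver many genes of the pathway are targets of the fatty acid receptor PPARalpha, which binds DNA with RXRalpha.

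Assigned reads numbered 15804115 to 17954066 per library. G3bp1 stood at 4.66, 4.27 and 4.44 FPKM in the HKO livers, against 8.46, 8.46 and 9.10 FPKM in the Flox livers, so each library matched its label. FPKM is a read count divided by the gene's length and by a library size. Hepatocyte markers (10 genes, among them Alb, Ttr and Apob) summed to 42835 to 52214 FPKM in HKO and to 49313 to 51111 FPKM in Flox, and 6 of the 10 had a lower mean in HKO. The FPKM of all genes summed to 412344 to 422735 in the HKO libraries and to 431497 to 494433 in the Flox libraries, which touches every comparison of FPKM below. The adipocyte marker Adipoq had 0 reads in all 6 libraries, as had the pancreatic markers Pnlip and Prss2. Other markers of these lists did have reads. The 4 adipocyte markers summed to 0.39 to 6.05 FPKM in HKO and to 1.28 to 18.6 FPKM in Flox, highest in Flox 2. The 4 pancreatic markers summed to 0.0313 to 0.383 FPKM in HKO and to 0.0782 to 0.449 FPKM in Flox. All 9 macrophage markers had a higher mean in HKO and summed to 169 to 283 FPKM there, against 111 to 207 FPKM in Flox, and none of them was at 0. Endothelial markers summed to 22.4 to 30.6 FPKM in HKO and to 19.9 to 26.6 FPKM in Flox, and stellate cell markers to 30.6 to 41.9 FPKM in HKO and to 28.8 to 37.2 FPKM in Flox. The part of these cells in the differences below was not tested. In such bulk tissue, fewer cells of a type and less RNA per cell cannot be told apart.

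All 9 peroxisomal genes passed the filter on low values (at least 0.5 FPKM in at least 3 libraries, 11856 genes tested), and all 9 had a lower mean in HKO in the deposited FPKM. The median log2 fold change of the 9 was -0.34, against -0.01 over all genes tested, of which 51.2% were lower. Since the 9 were chosen with earlier results known, this comparison is a description and no test. In limma, with Benjamini-Hochberg adjustment over all genes tested and a threshold of 0.05, 0 of the 9 passed. The smallest adjusted p among them was 0.58. At an unadjusted p under 0.05 in limma there were 3 of the 9, all lower in HKO. Of all genes tested 4.55% were lower and 3.08% higher at that threshold. Limma's voom on the recovered reads also called 0 of the 9 and had 3 at an unadjusted p under 0.05. The share of all genes called at the adjusted threshold was 0.00843%. The HKO libraries lay entirely below the Flox libraries in 4 of the 9 genes, namely Acaa1b, Acox2, Hsd17b4 and Scp2, and in 7.21% of all genes tested. Abundant genes were lower more often than others: of the 953 genes with a mean of at least 50 FPKM, 70.0% were lower in HKO, 14.6% without overlap, with a median log2 fold change of -0.14. When FPKM were rescaled to TPM (a fixed sum per library) the median of all genes moved to 0.15, and 7 of the 9 peroxisomal genes were lower, or 8 relative to that median. The median log2 fold change of the 9 was then -0.17, and it was -0.22 under quantile normalization. Under TPM the fold changes were -0.24 for Acox2, -0.14 for Ehhadh, -0.17 for Hsd17b4, -0.18 for Acaa1a, -0.10 for Scp2 and -0.22 for Crat. The groups were apart in 3 of the 9 genes under TPM, since Scp2 then overlapped, and in 2.02% of all genes tested. Crot and Pex11a were the genes that turned higher in HKO under TPM.

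**Figure D1:**
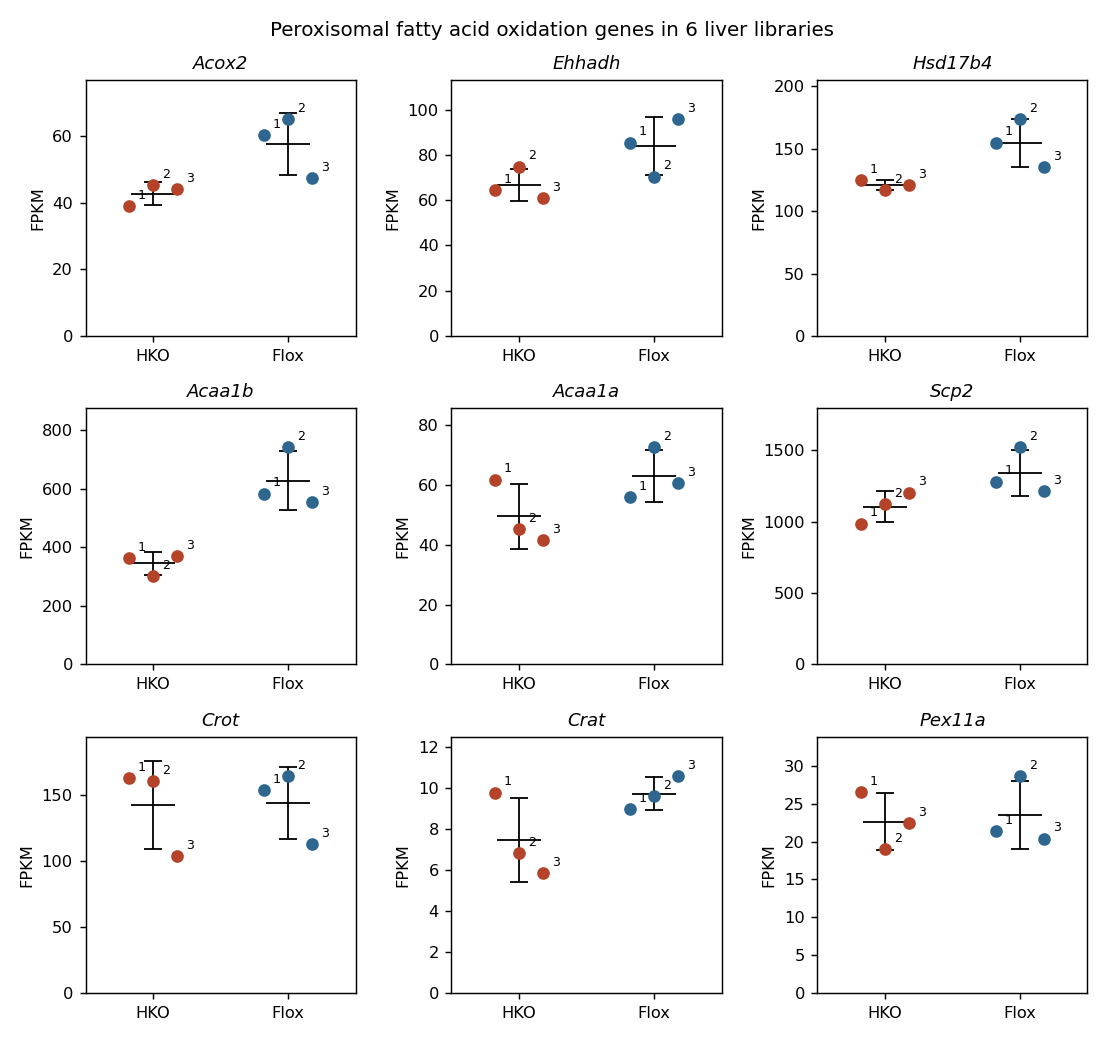
FPKM (y axis, from 0) of the 9 genes in each liver library, with HKO in red on the left and Flox in blue on the right; numbers give the replicate, the black bar is the mean and the whiskers the SD over 3 libraries. The groups are apart for Acox2, Hsd17b4, Acaa1b and Scp2 and overlap for the other 5 genes, and Acaa1b shows the widest gap, with 301 to 370.0 FPKM in HKO and 554 to 741 FPKM in Flox.

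Acox2 (ENSMUSG00000021751, minus strand, chr14:8225511-8259353, GRCm38) encodes the acyl-CoA oxidase that acts on branched-chain substrates and bile acid intermediates. It stood at 39.0, 45.4 and 44.1 FPKM in the HKO livers, against 60.4, 65.3 and 47.4 FPKM in the Flox livers. Flox 3 was the lowest Flox library and lay close above HKO 2. The means were 42.9 ± 3.41 FPKM in HKO and 57.7 ± 9.27 FPKM in Flox (SD, n = 3 libraries each), a level 25.7% lower in HKO. The log2 fold change was -0.41 (95% interval -0.76 to -0.06), and the adjusted p was 0.648 in limma. The exact two-sided permutation p was 0.1, the smallest that 3 against 3 libraries can give.

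The middle steps of the cycle are carried out by a bifunctional enzyme, which liver makes from a pair of separate genes. Hsd17b4 (ENSMUSG00000024507, plus strand, chr18:50128201-50196269) encodes the D-bifunctional protein, which takes branched and very long chains. It stood at 125, 117 and 121 FPKM in the HKO livers, against 155, 174 and 135 FPKM in the Flox livers. The HKO libraries lay close together, with a coefficient of variation of 3.15% (12.7% in Flox), and all were below Flox 3. Hsd17b4 had a log2 fold change of -0.34 (95% interval -0.65 to -0.04, adjusted p = 0.648 in limma). Ehhadh (ENSMUSG00000022853, minus strand, chr16:21761287-21787807) encodes the L-bifunctional protein, which acts on dicarboxylic acids and is a classic PPARalpha target in rodents. It stood at 64.5, 74.8 and 60.9 FPKM in the HKO livers, against 85.4, 70.4 and 95.9 FPKM in the Flox livers. HKO 2 was above Flox 2, so the groups overlapped. The log2 fold change of Ehhadh was -0.32 (95% interval -0.68 to 0.04, adjusted p = 0.667 in limma).

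Flox 2 held the highest value of Hsd17b4 and the lowest Flox value of Ehhadh, so their ratio varied most among the Flox livers. The FPKM of Hsd17b4 was 1.94, 1.57 and 1.99 times that of Ehhadh in the HKO livers and 1.81, 2.48 and 1.41 times in the Flox livers. The ratio averaged 1.83 ± 0.228 in HKO and 1.90 ± 0.541 in Flox (SD, n = 3 each), a difference within the spread between libraries.

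The thiolase gene Acaa1b showed the largest difference of the 9. Acaa1b (ENSMUSG00000010651, minus strand, chr9:119148023-119157093) encodes a 3-ketoacyl-CoA thiolase that PPARalpha agonists induce in rodents. It stood at 363, 301 and 370.0 FPKM in the HKO livers (from 12626, 9843 and 13458 reads), against 583, 741 and 554 FPKM in the Flox livers (from 17582, 21589 and 18266 reads). Every HKO library was lower than every Flox library, and the gap between HKO 3 and Flox 3 was wider than the whole range of the HKO libraries. The means were 344 ± 38.2 FPKM in HKO and 626 ± 101 FPKM in Flox (SD, n = 3 each), a level 45.0% lower in HKO. The log2 fold change was -0.85 (95% interval -1.24 to -0.47). Acaa1b ranked 19 of 11856 genes by p in limma (unadjusted p = 0.0011), and its adjusted p was 0.58, with 0.246 to 0.989 over the alternatives. The fold change was -0.68 under TPM and lay between -0.94 and -0.73 with 1 library left out.

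Acaa1a (ENSMUSG00000036138, plus strand, chr9:119339676-119350299) encodes the second thiolase of this kind and lies on the same chromosome. It stood at 61.8, 45.2 and 41.6 FPKM in the HKO livers, against 55.9, 72.6 and 60.5 FPKM in the Flox livers. HKO 1 lay above Flox 1 and Flox 3, while HKO 2 and HKO 3 were below all Flox livers. The log2 fold change was -0.35 (95% interval -0.77 to 0.07, adjusted p = 0.677 in limma). With 1 library left out it ran from -0.52 without HKO 1 to -0.24 without HKO 3. Within a library, the FPKM of Acaa1b was 5.87, 6.64 and 8.89 times that of Acaa1a in the HKO livers. In the Flox livers it was 10.4, 10.2 and 9.15 times that of Acaa1a. This ratio is independent of the library scaling, but its size depends on the gene lengths used. The deposited lengths are 1962 bases for Acaa1b and 4414 for Acaa1a, whereas their longest coding transcripts have 1689 and 1762 bases. With the transcript lengths the ratio would be smaller in every library. Acaa1a had 4839, 3333 and 3407 reads in the HKO livers and 3789, 4759 and 4491 in the Flox livers. All HKO ratios lay below all Flox ratios, at means of 7.13 ± 1.57 in HKO and 9.93 ± 0.687 in Flox (SD, n = 3 each; exact two-sided permutation p = 0.1, the smallest possible here).

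Because the thiolase pair is so alike, the sequences decide how well reads can be told apart. In the transcripts of GENCODE release M21 (GRCm38) both coding sequences are 1275 bases long and are identical at 1231 positions (96.5%), with 44 mismatches and no gap. The longest identical stretch is 327 bases. Of all windows of 100 bases in the longest transcript, 22.6% of those of Acaa1b also occur in a transcript of Acaa1a, and 21.6% of those of Acaa1a in one of Acaa1b. Another 7.86% of the Acaa1b windows occur in a transcript of Dlec1. The sources used here do not say how reads that match more than 1 gene were treated, so the split between the pair is uncertain. The summed level of Acaa1b and Acaa1a was 425, 346 and 412 FPKM in the HKO livers, against 639, 814 and 614 FPKM in the Flox livers, again without overlap. This sum depends on the split as well, since the reads are divided by 1962 bases for Acaa1b and by 4414 for Acaa1a. It mostly follows Acaa1b. The stretch of 90 coding bases with the most mismatches (13, in capitals) is shown because reads from here do separate the genes. It covers bases 460 to 549, counted from 1 at the A of the start codon, on the coding strand.
Acaa1b: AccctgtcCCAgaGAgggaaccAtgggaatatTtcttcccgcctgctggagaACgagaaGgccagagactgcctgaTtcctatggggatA
Acaa1a: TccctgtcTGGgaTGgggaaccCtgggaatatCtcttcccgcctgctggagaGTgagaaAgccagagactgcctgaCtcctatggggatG
The exons of Acaa1b overlap those of Dlec1 on the other strand by 11.4% of their bases, and the library kit does not mark strand. Dlec1 itself had only 9 to 33 reads per library. The exons of Acaa1a overlap those of Myd88 by 6.57%, and Myd88 had 239 to 319 reads per library, against 3333 to 4839 for Acaa1a.

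**Figure D2:**
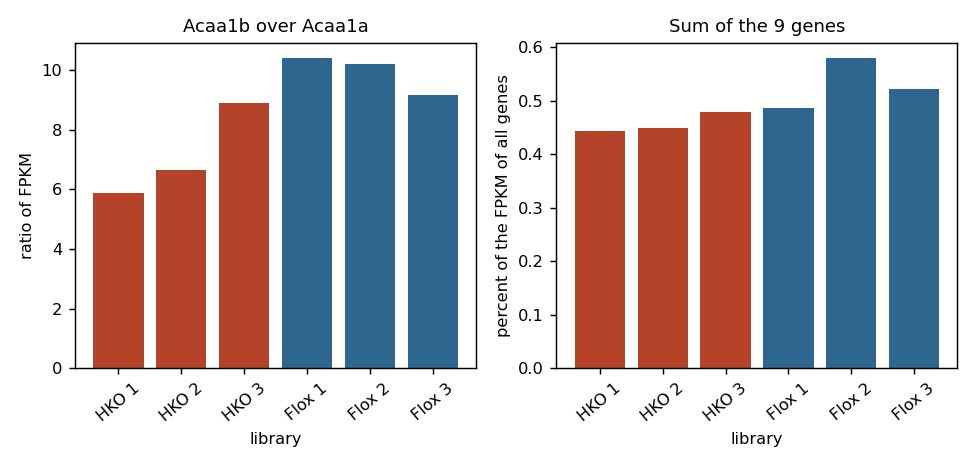
Left, FPKM of Acaa1b divided by that of Acaa1a in each library; right, summed FPKM of the 9 genes as a percent of the FPKM of all genes in that library (bars from 0, HKO red, Flox blue). All 3 HKO libraries sit below all 3 Flox libraries in both panels, at 5.87 to 8.89 against 9.15 to 10.4 on the left and at 0.444% to 0.478% against 0.486% to 0.579% on the right. Scp2 and Acaa1b make up most of the sum on the right.

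The region before the transcription start is given for Acaa1b, the gene with the largest difference. It holds the 250 bases before the RefSeq start on the minus strand, chr9:119157094-119157343 (GRCm38.p6, RefSeq), and capitals mark the motif CCAAT, here in its reverse form ATTGG.
Acaa1b: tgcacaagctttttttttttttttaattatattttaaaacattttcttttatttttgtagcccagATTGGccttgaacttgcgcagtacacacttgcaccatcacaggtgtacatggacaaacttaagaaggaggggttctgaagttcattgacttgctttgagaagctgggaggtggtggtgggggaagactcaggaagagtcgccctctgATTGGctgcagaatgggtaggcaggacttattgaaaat
CCAAT was searched on both strands and has 2 matches there, and 33.8% of 32851 RefSeq promoters hold at least 1 in these 250 bases. It is not particular to Acaa1b: Acaa1a has 3 matches, and Crot, Ehhadh and 1 of the windows of Acox2 have 1 each. The direct repeat that PPARalpha and RXRalpha bind, AGGTCA written 2 times with 1 free base between, was searched on both strands with up to 2 mismatches. This repeat has no match in the window of Acaa1b, nor in those of Scp2, Crot, Pex11a, Acaa1a, Acox2 and Ehhadh, the other genes with an entry. Of all promoters 3.24% hold one, so most windows lack it. Sites outside these 250 bases were not searched, so the genes may hold the repeat elsewhere. The shorter AGGTCA occurs once, in the window of Scp2, and in 14.0% of all promoters. The RefSeq starts behind the windows of Scp2, Acaa1a, Acox2 and Crot lie inside the gene spans given here, so these windows lie wholly or, for Crot, in part within those spans. Hsd17b4 and Crat have no entry in the promoter table.

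Scp2 (ENSMUSG00000028603, minus strand, chr4:108043839-108144998) encodes a thiolase for branched chains and, from a second promoter, the lipid carrier protein SCP2. It was the most abundant of the 9 genes, with 986, 1123 and 1203 FPKM in the HKO livers, against 1279.8, 1519.6 and 1214 FPKM in the Flox livers. HKO 3 and Flox 3 lay next to each other, and the groups just failed to overlap. Under TPM they did overlap, with 2380, 2656 and 2918 TPM in the HKO livers, against 2588, 3092 and 2814 TPM in the Flox livers. The means were 1104 ± 109.5 FPKM in HKO and 1338 ± 161 FPKM in Flox (SD, n = 3 each). Scp2 had a log2 fold change of -0.27 (95% interval -0.63 to 0.08, adjusted p = 0.685 in limma). Of its windows of 100 bases, 32.2% also occur in the pseudogene Scp2-ps2, which had 1553 to 2322 reads per library, against 60852 to 78483 for Scp2. Reads of the thiolase form and of the carrier form are not separated in a table by gene.

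Neither carnitine acyltransferase gene had groups that were apart. Crot (ENSMUSG00000003623, minus strand, chr5:8966033-8997324) encodes carnitine octanoyltransferase, which prepares medium-chain products for export from the peroxisome. It stood at 163, 161 and 104 FPKM in the HKO livers, against 154, 165 and 113 FPKM in the Flox livers. Replicate 3 was the low library in both groups, and the groups overlapped throughout. The log2 fold change was -0.02, with a 95% interval of -0.55 to 0.51 (adjusted p = 0.982 in limma), so a difference in either direction of up to that size is compatible with these libraries. Its sign turned under TPM (0.15), under quantile normalization (0.10) and without HKO 3 (0.19).

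Crat (ENSMUSG00000026853, minus strand, chr2:30400471-30415813) encodes carnitine acetyltransferase, which works on acetyl groups in peroxisomes and mitochondria. It was the least abundant of the 9, with 9.78, 6.81 and 5.84 FPKM in the HKO livers (from 935, 612 and 583 reads), against 8.98, 9.60 and 10.6 FPKM in the Flox livers (from 744, 768 and 957 reads). HKO 1 lay within the Flox range, and HKO 2 and HKO 3 lay below it. For Crat the log2 fold change was -0.36 (95% interval -0.77 to 0.05, adjusted p = 0.667 in limma). It was -0.55 without HKO 1 and -0.22 without HKO 3.

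Pex11a (ENSMUSG00000030545, minus strand, chr7:79735957-79743131) encodes a membrane protein that helps peroxisomes elongate and divide, and PPARalpha agonists induce it in rodents. It stood at 26.5, 19.0 and 22.4 FPKM in the HKO livers, against 21.4, 28.7 and 20.4 FPKM in the Flox livers. The highest value was that of Flox 2 and the lowest that of HKO 2, with the other 4 libraries mixed. Pex11a had a log2 fold change of -0.05 (95% interval -0.45 to 0.36, adjusted p = 0.941 in limma), and it was 0.13 under TPM and 0.10 without Flox 2.

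Per length, the levels of the 9 genes had nearly the same order in both groups. In HKO it ran from Scp2 through Acaa1b, Crot, Hsd17b4, Ehhadh, Acaa1a, Acox2 and Pex11a to Crat. This order rests on the deposited lengths, which exceed the longest coding transcript unevenly. For Acaa1a they are 4414 and 1762 bases, for Ehhadh 2981 in both, so other lengths can change the order. In Flox Hsd17b4 had a higher mean than Crot (155 ± 19.7 and 144 ± 27.1 FPKM), whereas in HKO Crot stood at 143 ± 33.7 FPKM and Hsd17b4 at 121 ± 3.81 FPKM. The ranges of Crot and Hsd17b4 overlapped in both groups, as did those of Ehhadh and Acaa1a and of Acaa1a and Acox2. All other neighbours were apart. The 9 genes summed to 1839, 1893 and 1973 FPKM in the HKO livers, against 2404, 2846 and 2251 FPKM in the Flox livers. Acaa1b made up 19.7%, 15.9% and 18.8% of that sum in the HKO livers and 24.3%, 26.0% and 24.6% in the Flox livers, without overlap. As a share of the FPKM of all genes the sum averaged 0.457% ± 0.0189 in HKO and 0.529% ± 0.0469 in Flox (SD, n = 3 each; exact two-sided permutation p = 0.1, the smallest possible here). The sum follows its most abundant genes and does not stand for all 9. Scp2 averaged 58.0% of it in HKO and 53.5% in Flox, and Acaa1b 18.1% and 25.0%.

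**Figure D3:**
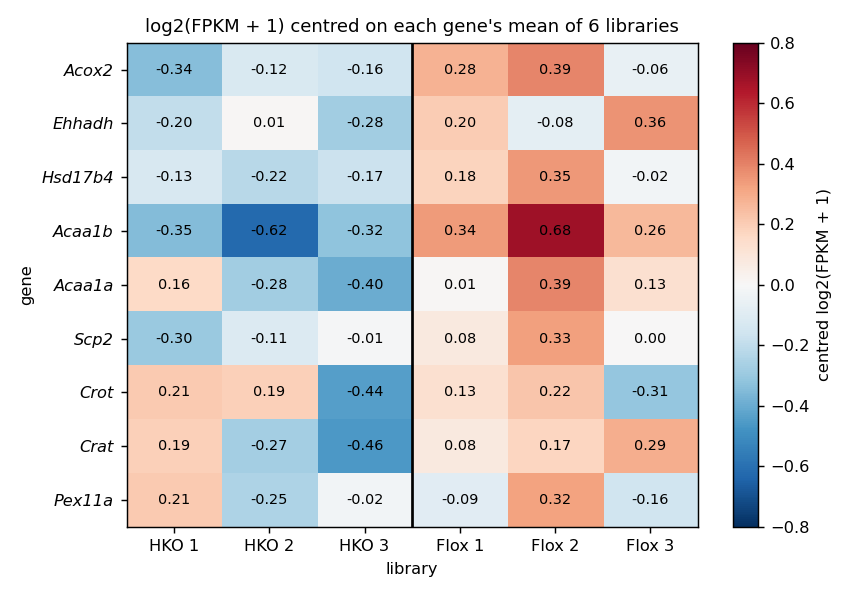
Each cell gives log2(FPKM + 1) of a gene in a library, centred on the mean of that gene over the 6 libraries (red above, blue below); the 3 HKO libraries are left of the line and the 3 Flox libraries right of it. In these FPKM values Flox 2 is the highest library for 7 of the 9 genes, and in HKO 1 Acaa1a, Crot, Crat and Pex11a lie above their means. Under TPM HKO 1 is the highest library for Acaa1a, Crot and Pex11a.

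Libraries within a group differed in which genes they held high. In the deposited FPKM, Flox 2 held the highest value of 7 of the 9 genes and Flox 3 that of the other 2, Ehhadh and Crat. No HKO library was the highest in FPKM for any of them. The lowest FPKM was in HKO 1 for 2 genes, in HKO 2 for 3 and in HKO 3 for 4. These ranks depend on the scaling. Under TPM HKO 1 was the highest library for Acaa1a (149, against 148 in Flox 2), Crot (394) and Pex11a (63.9). The mean of the centred log2 values over the 9 genes was -0.06, -0.19 and -0.25 in the HKO livers, against 0.13, 0.31 and 0.06 in the Flox livers. The libraries of the groups came closest in HKO 1 and Flox 3. In HKO 1 the genes split: Acox2, Acaa1b and Scp2 lay 0.30 to 0.35 below their means on the log2 scale, while Acaa1a, Crot, Crat and Pex11a lay 0.16 to 0.21 above. Without Flox 2 the median log2 fold change of the 9 was -0.25, with 7 of them lower.

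**Figure D4:**
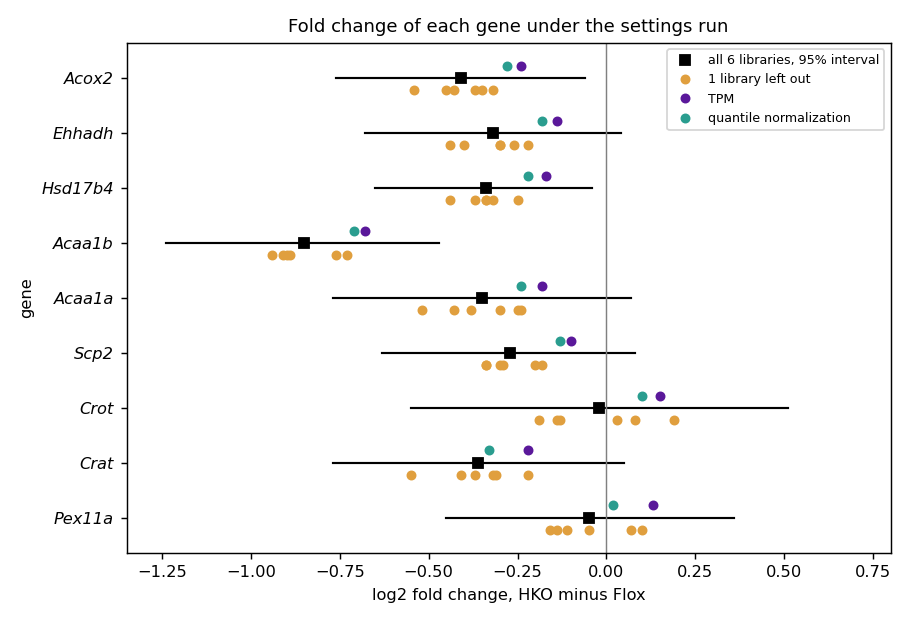
Log2 fold change (HKO minus Flox, x axis) of each gene; black squares with lines are the values from all 6 libraries with 95% intervals, orange points leave out 1 library each, and purple and green points use TPM and quantile normalization. Acaa1b lies between -0.94 and -0.68 in all of these, and Crot and Pex11a fall on both sides of 0.

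Other genes of peroxisomal oxidation were lower as well in the deposited FPKM, and none passed. Of 24 listed genes 22 were tested, and 20 had a lower and 2 a higher mean in HKO, with a median log2 fold change of -0.28 (15 lower under TPM, 20 when set against the median of all genes). Limma called 0 of them, as did voom, and 5 had an unadjusted p under 0.05. The shares of all genes at an unadjusted p under 0.05 were 4.55% as lower and 3.08% as higher in HKO. Hacl1, a lyase of the alpha-oxidation of branched chains, stood at 3.68, 3.24 and 2.63 FPKM in the HKO livers, against 5.09, 5.19 and 5.10 FPKM in the Flox livers (log2 fold change -0.56, adjusted p = 0.58 in limma). Phyh, the hydroxylase that starts alpha-oxidation, averaged 848 ± 57.7 FPKM in HKO and 1135 ± 126 FPKM in Flox. Decr2, a reductase needed for unsaturated chains, averaged 81.9 ± 1.81 FPKM in HKO and 114 ± 9.91 FPKM in Flox (log2 fold change -0.47, adjusted p = 0.58 in limma). These 3 are among 7 of the 22 genes (31.8%) whose HKO libraries lay entirely below the Flox libraries in FPKM. That share was 7.21% over all genes tested and 14.6% over those with a mean of at least 50 FPKM. For this list it was not counted under TPM.

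A further list, of other peroxisomal enzymes, included genes with a lower and with a higher mean. Of 20 listed genes 17 were tested, and 13 were lower and 4 higher, with a median log2 fold change of -0.27. Under TPM 11 were lower, or 13 relative to the median of all genes. Limma and voom called 0 of them, and 3 had an unadjusted p under 0.05 in limma, all lower in HKO. At that threshold 4.55% of all genes tested were lower and 3.08% higher. The lipid epoxide hydrolase gene Ephx2 averaged 303 ± 22.9 FPKM in HKO and 436 ± 63.8 FPKM in Flox. Gstk1, a glutathione transferase, averaged 89.0 ± 10.5 FPKM in HKO and 122 ± 13.9 FPKM in Flox. Pipox, which degrades pipecolic acid, averaged 105 ± 6.67 FPKM in HKO and 133 ± 12.5 FPKM in Flox. Acsl1, an acyl-CoA synthetase also found on other membranes, averaged 78.3 ± 9.62 FPKM in HKO and 99.6 ± 13.2 FPKM in Flox, with overlap. These genes had the smallest p of the list. The 4 with a higher mean were the ether lipid genes Gnpat (log2 fold change 0.17) and Agps (0.20) and the mevalonate pathway genes Mvk (0.10) and Pmvk (0.37), named after their values were seen.

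Genes listed as peroxins and peroxisomal membrane proteins were also mostly lower in mean in the deposited FPKM, and none passed. This list is mixed and also holds Fis1, Mff, Dnm1l and Mpv17, which are no peroxins. All 22 listed genes were tested, and 20 were lower, with a median log2 fold change of -0.13 and 0 called by limma or voom. In limma 4 had an unadjusted p under 0.05, all lower in HKO. At that threshold 4.55% of all genes tested were lower and 3.08% higher. Under TPM only 7 of the 22 were lower, or 17 relative to the median of all genes. Pex11g, a relative of Pex11a, averaged 5.88 ± 0.719 FPKM in HKO and 8.08 ± 1.5 FPKM in Flox, with a log2 fold change of -0.39. The import receptor docking protein gene Pex14 averaged 6.09 ± 0.61 FPKM in HKO and 7.73 ± 0.878 FPKM in Flox. Pex16, needed for membrane assembly, averaged 40.9 ± 6.74 FPKM in HKO and 53.9 ± 7.97 FPKM in Flox. Pex10, a ubiquitin ligase of the import machinery, averaged 1.52 ± 0.385 FPKM in HKO and 2.30 ± 0.399 FPKM in Flox.

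**Figure D5:**
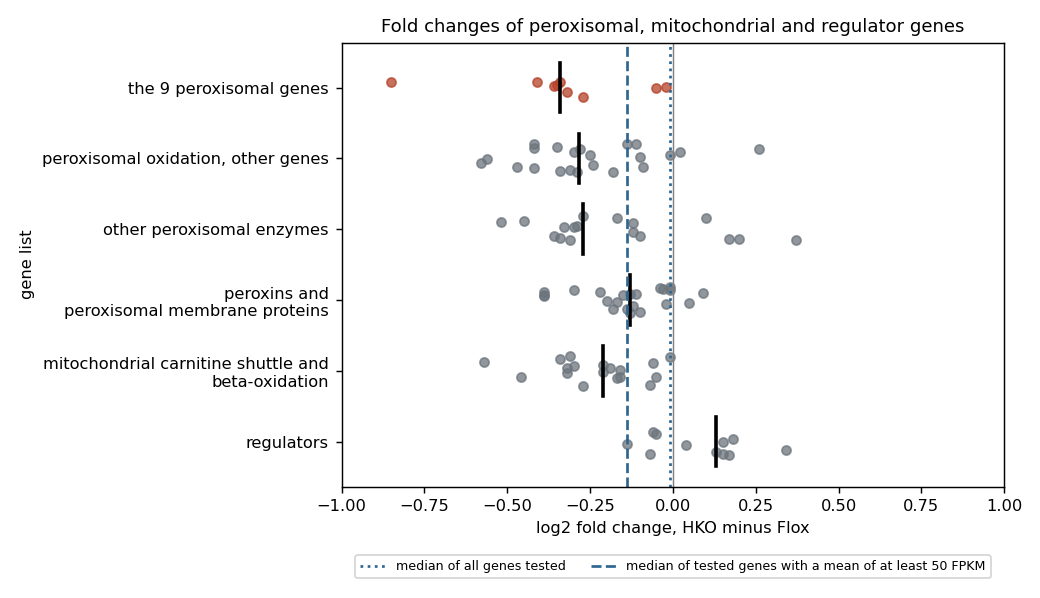
Log2 fold change (HKO minus Flox, x axis) of each tested gene by list, with the 9 peroxisomal genes in red at the top; each point is a gene, the black bar is the list's median, and the blue lines are the medians of all genes tested (dotted, -0.01) and of those with a mean of at least 50 FPKM (dashed, -0.14). The medians of the oxidation lists lie at -0.34 and -0.28, that of the other peroxisomal enzymes at -0.27 and that of the peroxins and membrane proteins at -0.13. The median of the mitochondrial genes lies at -0.21 and that of the regulators at 0.13.

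The mitochondrial pathway that takes over the shortened chains was lower in mean as well. All 18 genes of the mitochondrial carnitine shuttle and beta-oxidation had a lower mean in HKO, with a median log2 fold change of -0.21. Under TPM 11 were lower, or 17 relative to the median of all genes. Limma and voom called 0 of them, and 2 had an unadjusted p under 0.05 in limma. At that threshold 4.55% of all genes tested were lower and 3.08% higher. Cpt2, which takes acyl groups off carnitine inside mitochondria, averaged 68.1 ± 2.88 FPKM in HKO and 85.7 ± 14.3 FPKM in Flox. Eci1, an isomerase for unsaturated chains, averaged 119.6 ± 19.5 FPKM in HKO and 165 ± 25.4 FPKM in Flox. The reductase gene Decr1 averaged 44.4 ± 6.17 FPKM in HKO and 56.4 ± 5.53 FPKM in Flox. The dehydrogenase gene Hadh averaged 64.2 ± 7.86 FPKM in HKO and 79.7 ± 8.76 FPKM in Flox. No difference between the mitochondrial genes and the 9 peroxisomal genes was tested. Of 11 regulators 4 were lower and 7 higher, and 0 were called by limma or voom (1 at an unadjusted p under 0.05 in limma, higher in HKO, beside the 3.08% of all genes tested). Ppara stood at 20.4, 26.3 and 23.5 FPKM in the HKO livers, against 16.5, 17.9 and 29.2 FPKM in the Flox livers. The mean of Ppara was thus not lower in HKO, and the groups overlapped (log2 fold change 0.17, 95% interval -0.34 to 0.68, adjusted p = 0.819 in limma). Its partner Rxra stood at 116, 93.3 and 102 FPKM in the HKO livers, against 74.0, 80.0 and 92.0 FPKM in the Flox livers. All HKO libraries were above all Flox libraries (log2 fold change 0.34, adjusted p = 0.648 in limma). In 6.06% of all genes tested the HKO libraries lay entirely above. Hnf4a, a master regulator of hepatocyte genes, averaged 124 ± 8.61 FPKM in HKO and 109 ± 5.16 FPKM in Flox (adjusted p = 0.697 in limma).

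Other genes followed the average profile of the 9 more closely than any of the 9 did. The measure was the root mean square difference of centred log2(FPKM + 1) values over the 6 libraries, which had a median of 0.234 over 10425 protein-coding genes. Among the nearest were Ndufs4, a complex I subunit (0.0262), Calcoco1 (0.0302), the autophagy receptor gene Sqstm1 (0.0356) and the proteasome subunit gene Psmd6 (0.038). Among the 9 themselves Hsd17b4 was nearest to their average (0.0588) and Acaa1b farthest (0.287), followed by Crot (0.256). Ndufs4 stood at 19.9, 17.9 and 16.7 FPKM in the HKO livers, against 23.5, 25.6 and 21.7 FPKM in the Flox livers, without overlap. These genes were picked for their profile, so their values are a description with no test.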

How the data were processed

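RNA from frozen liver was extracted with RNeasy Plus and made into libraries with the NEBNext Ultra kit, per the labels' protocols. The authors deposited FPKM per gene for 6 libraries, with gene lengths. Per the submitters' processing notes the build was GRCm38, also called mm10. The aligner, the counter and the annotation are not given in the sources used. FPKM times gene length moved in steps that gave whole reads (within 0.02 reads) for 100% of values, and depth was taken from them. FPKM divides by a library size that was 0.9343 to 1.055 times the assigned reads, so scaling affects small differences.

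The 11856 genes that reached 0.5 FPKM in 3 or more of the 6 libraries were tested on log2(FPKM + 1) with limma 3.58.1 in R 4.3.3 (trended, robust with statmod 1.5.0, HKO minus Flox, Benjamini-Hochberg adjustment, threshold 0.05). The pseudocount of 1 understates fold changes of low genes. Single values were compared with exact permutation tests. The limma step was tested on simulated data of 11856 genes with independent noise. It called 73% of genes changed by 1 and 97% of those changed by 2 on the log2 scale. Of its 178 calls 8 were false. The simulation changed 100 genes by each of these sizes, whereas 1 gene was called in the real data. The adjustment is stricter where fewer genes are called, so these shares do not measure the power in the real libraries. Smaller changes, such as the median of -0.34 of the 9 genes, were not simulated, so the simulation does not measure the power for them either. Alternatives were other pseudocounts, filters and scalings, voom on the recovered reads, a replicate block and leaving out each library.

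The 9 genes and the lists were chosen with earlier results of these data known. Named were the 9 genes, up to 4 genes of each other list with the smallest p, Ppara, Rxra and Hnf4a, G3bp1, and the 5 protein-coding genes nearest to the average profile. Some of these are not reported here. Deviations of libraries with the same replicate number correlated at 0.0215, 0.015 and 0.0704 across genes, and the numbers were not used as pairs. Coding sequences came from GENCODE M21 transcripts, and promoters from RefSeq, which had an entry for 7 of the 9 genes. Python 3.11.15 was used for tables and figures.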

Additional observations from a re-analysis of the deposited data

How the results depend on the processing

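None of the 9 genes was called by limma under any alternative run (3 at an unadjusted p under 0.05 with all libraries, 1 to 4 over the alternatives). Over all genes 1 was called, against 0 with no filter (1199 at an unadjusted p under 0.05), 2 with a mean of at least 5 FPKM, 3 with voom and 0 to 13 with 1 library left out (13 without HKO 1). With the replicate number as a block 0 genes were called (784 at an unadjusted p under 0.05), the fold changes of the 9 were the same, and no call among the 9 or the other lists changed. Of the 9 genes 9 were lower, against 7 under TPM, under scaling by assigned reads and under quantile normalization, and 7 to 9 with 1 library left out. Their median log2 fold change was -0.34, against -0.17 under TPM, -0.22 under quantile normalization, -0.26 under scaling by assigned reads and -0.35 to -0.25 with 1 library left out. The median of all genes moved to 0.15 under TPM, and relative to it that of the 9 was -0.31. Under TPM 7 of the peroxins and membrane proteins and 11 of the mitochondrial genes were lower, against 20 and 18. Of the regulators 1 was lower under TPM, 1 under assigned reads and 2 under quantile normalization, against 4. Crot turned to 0.15 under TPM, 0.05 under assigned reads and 0.10 under quantile normalization, and ranged from -0.19 to 0.19 with 1 library left out. Pex11a turned to 0.13, 0.03 and 0.02 under the same scalings and ranged from -0.16 to 0.10. G3bp1 was called with voom alone (log2 fold change -0.96, adjusted p = 0.037). In the main limma fit the knocked-out gene itself was not called (log2 fold change -0.83, adjusted p = 0.11). The causes of these changes were not tested.

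The planned edgeR test and voom with TMM factors were not run, since the deposited unit is FPKM. Voom with the library sizes behind the FPKM took their place and was chosen after seeing the data. So was the count of genes whose groups were apart under other scalings, which was 3 of the 9 under TPM and 4 under assigned reads, against 4 in FPKM. With 3 libraries a group, the 95% interval of Crot, for example, ran from -0.55 to 0.51 on the log2 scale, while each of the 9 genes had at least 583 reads in every library.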
